A study of Mus musculus with 92 samples.

Results

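Adar1 guide 2 macrophages were compared with control macrophages by bulk RNA sequencing. The members were chosen from the sample labels, as all 5 libraries of macrophages that carried the guide sgRNA 2 against Adar1 (Adar in the table of the data) and all 3 libraries of macrophages with a non-targeting control guide (NTC), both after 7 days of differentiation. These 8 libraries are part of 92 in the series. The study asked whether macrophages made from conditionally immortalized progenitors can stand in for microglia, and what loss of Adar1, a gene mutated in Aicardi-Goutières syndrome, does in them. For this it targeted Adar1 with 2 guides and sequenced progenitors and macrophages of each line, with a separate set of sgRNA 1 and NTC macrophages given baricitinib, an inhibitor of Janus kinases, or none.

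Both groups came from ER-Hoxb8 progenitors of Cas9 mice, labelled Cas9 het. ER-Hoxb8 progenitors carry a fusion of the estrogen receptor and Hoxb8 that holds them immature while estradiol is present, and they were grown with GM-CSF. They were transduced with a virus that carries the guide and a fluorophore, sorted by FACS for the fluorophore, freed of estradiol and differentiated for 7 days in M-CSF, and none of the 8 libraries had baricitinib. The groups therefore share the Cas9 allele, the ER-Hoxb8 fusion, transduction and sorting, and differ by genotype as Adar1 KO (sgRNA 2) and NTC. Each line is a sorted pool of edited cells and not a single clone, so a pool can hold cells in which Adar1 was not cut. The libraries of the 2 groups also lie in different normalization sets of the deposited table, so that guide and set cannot be told apart. NTC replicate 2 has the word Redo in its library name and is alone in its set. The labels do not say what was redone. The labels do not state whether the replicates are separate cultures, and if they are not, the p-values measure the spread between these samples only. Other libraries of the study serve for comparison: progenitors of the sgRNA 2 and NTC lines before differentiation (3 each), sgRNA 1 macrophages after 7 days (3), and sgRNA 1 and NTC macrophages of the baricitinib experiment at 0 uM (3 each).

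ADAR1 edits adenosine to inosine in double-stranded RNA of the cell's own transcripts. Unedited double-stranded RNA is bound by MDA5, the product of Ifih1, which signals through the adaptor MAVS to induce interferon beta. Interferon beta binds the receptor IFNAR1 and IFNAR2, whose Janus kinases activate transcription factors of the STAT family, and these join IRF9 to turn on the interferon-stimulated genes (ISGs).

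Values are CPM, the counts of a gene per 1 M counts of its library, rebuilt from the deposited log2 values and rescaled over the 8 libraries. Depth was estimated from the spacing of small CPM values. The estimates were 17.85, 17.1, 25.15, 23.05 and 21.4 M counts in the sgRNA 2 macrophages, and 22.45, 20 and 25.6 M counts in the NTC macrophages. By them 3 counts correspond to between 0.117 and 0.175 CPM, and these floors cover counting error only. Genes were compared with limma as the log2 fold change (log2FC) of sgRNA 2 minus NTC, given here with its standard error after ±, for 5 against 3 libraries. A differentially expressed gene (DEG) had a Benjamini-Hochberg adjusted p under 0.05 and a log2FC of 2 or more, or of -2 or less, and "rose", "fell", "higher" and "lower" are used as test results for DEGs alone. In all, 855 of 10586 genes tested, or 8.08%, were DEGs, 596 higher and 259 lower with sgRNA 2, and the groups did not overlap for 831 of them, against 61.8% of all genes tested and 3.57% by chance. A gene was tested if it exceeded 1 CPM in 3 or more libraries. Of the higher DEGs 303 met this through sgRNA 2 libraries alone (they would not through NTC libraries alone), and of the lower DEGs 128 through NTC libraries alone, and for these the filter favours the direction found. Without NTC replicate 1, 2 or 3 the lower DEGs numbered 140, 172 and 156, as the 2 NTC libraries left cannot meet the filter alone. The median log2FC of all genes tested was 0.05. With the values as deposited it was 0.20, so small differences depend on the scaling.

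Adar itself was at 118, 116, 117, 117 and 114 CPM in sgRNA 2 macrophages and at 52.1, 62.0 and 48.7 CPM in NTC macrophages. All 5 sgRNA 2 libraries lay above the 3 NTC libraries (log2FC 1.11 ± 0.08, adjusted p = 1.28e-06), a difference smaller than the log2FC of 2 that a DEG needed. Adar mRNA was therefore not lower in the cells with the Adar1 guide; these counts are of RNA and do not show whether it encodes intact protein. Adarb1 and Adarb2, the other genes of the family, exceeded 1 CPM in too few libraries to be tested (at most 2.17 and 1.37 CPM). In progenitors Adar was at 21.2, 24.2 and 21.1 CPM with sgRNA 2 and 18.99, 11.03 and 19.8 CPM with NTC.

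The macrophages with sgRNA 2 had high levels of ISGs. All 20 ISGs that the study plotted were higher, against 5.63% of all genes tested, with a median log2FC of 3.57 against 0.05 for all genes. The study plotted these 20 as relevant ISGs on samples that include these, so their count is not taken as independent evidence of the direction. All 20 were tested, and of them Cxcl10 and Ifi44 met the filter through sgRNA 2 libraries alone. Ifit1, which binds viral RNA that lacks a host cap, was at 942, 1003, 921, 912 and 1031 CPM in sgRNA 2 macrophages and at 16.01, 13.3 and 13.95 CPM in NTC macrophages. Its lowest sgRNA 2 library was far above its highest NTC library (log2FC 6.05 ± 0.07, adjusted p = 1.48e-11), and all other ISGs of the 20 also had sgRNA 2 libraries above all NTC libraries, as had 32.5% of all genes tested. Rsad2 encodes viperin, an enzyme that makes an antiviral nucleotide, and it was at 195, 168, 186, 189 and 191 CPM in sgRNA 2 macrophages and at 3.67, 3.35 and 3.49 CPM in NTC macrophages (log2FC 5.69 ± 0.07, adjusted p = 1.48e-11). Ifi44 was at 31.6, 39.0, 31.7, 33.4 and 38.8 CPM in sgRNA 2 macrophages and at 0.220, 0.993 and 0.716 CPM in NTC macrophages (log2FC 5.73, adjusted p = 4.14e-07). For Ifi44 the NTC libraries were under 1 CPM and the most spread of these genes. Ifit3, a partner of IFIT1, was at 1165, 1216, 1123, 1116 and 1231 CPM in sgRNA 2 macrophages and at 26.6, 24.3 and 20.5 CPM in NTC macrophages (log2FC 5.62, adjusted p = 4.38e-11). Oas3, which makes the second messenger that activates RNase L, was at 664, 647, 622, 654 and 648 CPM in sgRNA 2 macrophages and at 14.6, 23.2 and 16.3 CPM in NTC macrophages (log2FC 5.19 ± 0.12, adjusted p = 1.75e-09). In each of these 5 genes the sgRNA 2 libraries lay close together.

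The promoters of these 5 ISGs are shown because the genes rose together and the factors that act on them, STAT proteins with IRF9 and other IRF proteins, bind short motifs beside the start. Each runs 5′ to 3′ over 300 bases, 250 before and 50 after the start, taken from RefSeq on build GRCm38.p6. The motif searched was GAAANNGAA on both strands, 9 letters, and capitals mark where it matched. Matches may overlap one another, as they do for Ifit1 and Oas3. The 5 genes are those with the largest log2FC among the ISGs that have a promoter entry holding the motif. ISGs without such an entry were passed over, as was Usp18 (log2FC 5.80). A match in each of the 5 was therefore set by the choice and supports nothing. The promoters are Ifit1 at chr19:34640639-34640938 on the plus strand with 3 matches, Ifi44 at chr3:151749861-151750160 on the minus strand with 1 match, Rsad2 at chr12:26456403-26456702 on the minus strand with 1 match, Ifit3 at chr19:34583279-34583578 on the plus strand with 3 matches and Oas3 at chr5:120777610-120777909 on the minus strand with 2 matches. The motif was in 8.56% of all 32851 promoters of this length, in 7.39% of the 10184 promoters of genes tested, and in 11 of the 18 promoters found (61.1%) for 15 of the 20 ISGs. A match is a description of letters and does not show a bound site.
Ifit1: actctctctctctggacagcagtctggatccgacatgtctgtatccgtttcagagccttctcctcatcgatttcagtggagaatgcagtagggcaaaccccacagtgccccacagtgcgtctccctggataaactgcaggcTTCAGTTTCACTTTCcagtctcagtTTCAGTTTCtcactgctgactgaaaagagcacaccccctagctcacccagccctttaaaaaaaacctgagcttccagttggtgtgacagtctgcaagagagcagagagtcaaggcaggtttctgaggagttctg
Ifi44: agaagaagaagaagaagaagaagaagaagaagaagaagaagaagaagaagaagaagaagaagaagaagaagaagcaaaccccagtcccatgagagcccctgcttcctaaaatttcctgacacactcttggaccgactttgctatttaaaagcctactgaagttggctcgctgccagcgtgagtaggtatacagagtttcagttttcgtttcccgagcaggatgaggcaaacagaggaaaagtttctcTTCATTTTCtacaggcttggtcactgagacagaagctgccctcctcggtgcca
Rsad2: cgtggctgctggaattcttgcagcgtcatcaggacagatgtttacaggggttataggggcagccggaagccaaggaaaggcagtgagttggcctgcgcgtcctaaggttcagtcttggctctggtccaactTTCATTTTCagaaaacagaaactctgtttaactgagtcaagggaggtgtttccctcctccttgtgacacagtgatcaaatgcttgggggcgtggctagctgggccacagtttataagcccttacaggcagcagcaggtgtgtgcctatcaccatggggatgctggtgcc
Ifit3: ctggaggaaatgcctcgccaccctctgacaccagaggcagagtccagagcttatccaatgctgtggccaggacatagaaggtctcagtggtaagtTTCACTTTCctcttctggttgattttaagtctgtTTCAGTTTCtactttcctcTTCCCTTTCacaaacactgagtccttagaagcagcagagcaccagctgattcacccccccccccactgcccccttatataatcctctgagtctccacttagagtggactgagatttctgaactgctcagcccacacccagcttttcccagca
Oas3: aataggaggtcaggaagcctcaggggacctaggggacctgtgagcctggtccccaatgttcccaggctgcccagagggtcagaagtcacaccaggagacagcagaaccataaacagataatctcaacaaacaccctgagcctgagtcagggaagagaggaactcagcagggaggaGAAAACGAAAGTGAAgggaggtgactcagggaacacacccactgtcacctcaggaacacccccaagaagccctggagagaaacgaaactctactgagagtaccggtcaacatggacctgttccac

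**Figure D1:**
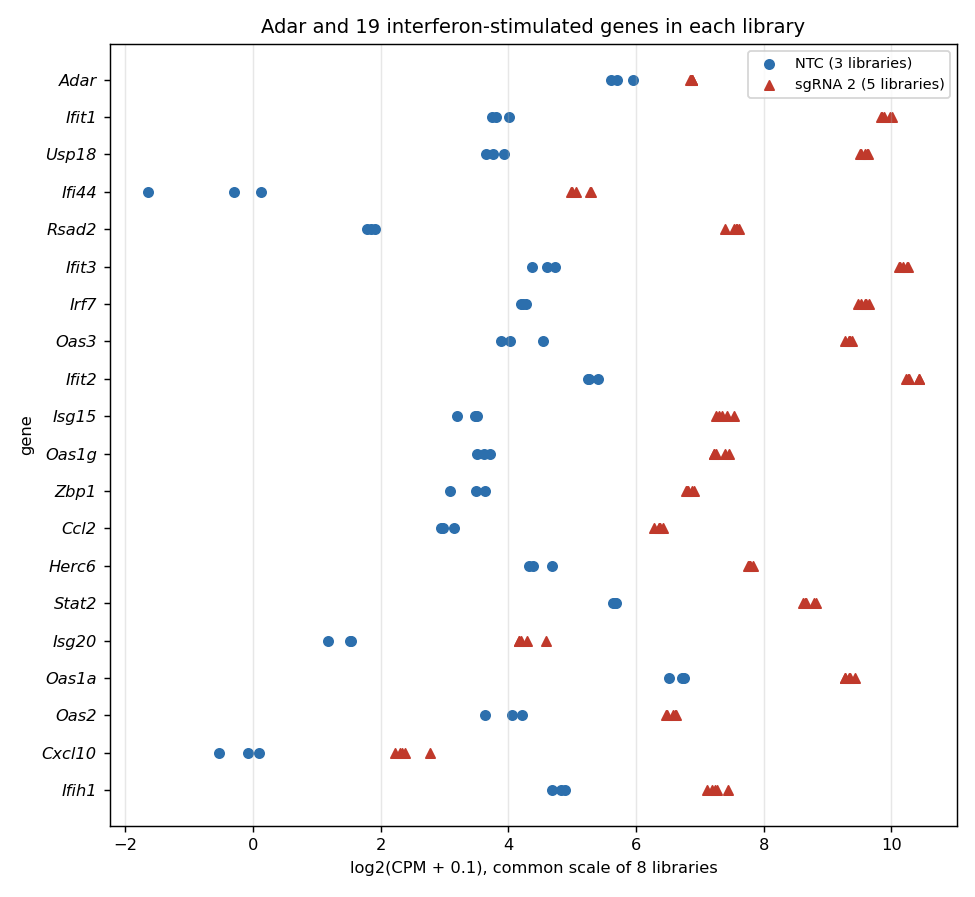
Level of Adar and 19 of the 20 ISGs in each of the 8 libraries, as log2(CPM + 0.1), with Adar in the top row. Red triangles are the 5 sgRNA 2 libraries and blue circles the 3 NTC libraries; in each row the triangles lie to the right of the circles, among the ISGs from Ifit1 with a log2FC of 6.05 to Ifih1 with 2.45.

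Of the 13 tested sensors of double-stranded RNA and DNA and their adaptors, 4 rose, against 5.63% of all genes tested, with a list median of 1.24. They were Zbp1, Ifih1, Ddx58 and Eif2ak2. Ifih1, which encodes MDA5, was at 150.4, 173, 138, 146 and 155 CPM in sgRNA 2 macrophages and at 28.3, 29.6 and 25.5 CPM in NTC macrophages (log2FC 2.45 ± 0.08, adjusted p = 1.14e-08). Ddx58, which encodes RIG-I, was at 164, 166, 167, 172 and 181 CPM in sgRNA 2 macrophages and at 43.1, 24.3 and 38.5 CPM in NTC macrophages (log2FC 2.31, adjusted p = 1.15e-06). Eif2ak2 encodes PKR, a kinase that halts translation when it binds double-stranded RNA, and it was at 164, 176, 183, 173 and 166 CPM in sgRNA 2 macrophages and at 28.9, 44.7 and 36.0 CPM in NTC macrophages (log2FC 2.25, adjusted p = 2.14e-07). Each sgRNA 2 library was above each NTC library for these 3 sensors. Zbp1, a sensor of Z-form nucleic acids that ADAR1 also binds, was at 113, 117, 111, 109.7 and 121 CPM in sgRNA 2 macrophages and at 11.1, 12.3 and 8.39 CPM in NTC macrophages (log2FC 3.44 ± 0.11, adjusted p = 8.57e-09). The groups were apart for Zbp1 as well, and of the 4 Ddx58 varied most among NTC libraries. The adaptor gene Mavs had 84.7, 86.6, 84.6, 77.8 and 86.1 CPM with sgRNA 2 against 139, 134 and 123 CPM with NTC (log2FC -0.65, adjusted p = 1.26e-05), a difference short of the threshold with sgRNA 2 below NTC in each library. Dhx58, which encodes LGP2, had a log2FC of 1.83.

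Among 20 interferon genes, Ifnb1 alone passed the filter on low values, through sgRNA 2 libraries alone, so that the filter favours the direction found. It was at or under 3 counts in every NTC library. Ifnb1 was at 0.855, 1.32, 1.10, 1.24 and 1.03 CPM in sgRNA 2 macrophages and at 0, 0 and 0.109 CPM in NTC macrophages, at least 6.93-fold higher with sgRNA 2 (adjusted p = 3.24e-05). Near 0 the log2FC depends on the constant added before the log, and with 1 or 0.5 CPM in place of 0.1 it was 1.02 or 1.58, no longer a DEG. All 5 sgRNA 2 libraries had reads of it, and 2 of the 3 NTC libraries were at 0. All 20 interferon genes together summed to 2.41, 2.90, 2.46, 2.90 and 2.81 CPM in sgRNA 2 macrophages and 0.0836, 0.211 and 0.325 CPM in NTC macrophages, with Ifna7, Ifna15, Ifne, Ifng, Ifnl2 and Ifnl3 at 0 in all 8 libraries. The 5 receptor chains tested had a median log2FC of -0.61 and lay between -1.44 and 0.56, short of the threshold. Ifnar1, a chain of the receptor for interferon beta, had 114, 128, 122, 117 and 125 CPM with sgRNA 2 against 159, 193 and 227 CPM with NTC (log2FC -0.66), and Ifngr1 had the most negative log2FC of the 5.

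Of 11 tested kinases, STAT and IRF genes that act below the receptors, 3 rose, against 5.63% of all genes tested, and the list median was 1.05. Irf7, which amplifies interferon transcription, was at 735, 781, 713, 765 and 801 CPM in sgRNA 2 macrophages and at 18.2, 19.2 and 18.6 CPM in NTC macrophages (log2FC 5.34 ± 0.05, adjusted p = 1.26e-11). Stat2, part of the complex that drives ISGs, was at 391.9, 451, 406, 403 and 443 CPM in sgRNA 2 macrophages and at 51.6, 51.1 and 49.5 CPM in NTC macrophages (log2FC 3.04, adjusted p = 4.94e-10). The groups were apart in both genes. Irf9, which joins the complex, had 165, 173, 170.0, 166 and 177 CPM with sgRNA 2 against 83.5, 77.0 and 74.7 CPM with NTC (log2FC 1.12, adjusted p = 1.47e-07), without passing the threshold. Of the 4 tested inhibitors of interferon signalling, 1 rose, against 5.63% of all genes tested, and the median was -0.05, a sign that changed under 1 alternative. That gene was Usp18, which removes ISG15 from proteins and blocks the receptor, at 768, 784, 731, 738 and 796 CPM in sgRNA 2 macrophages and at 15.2, 13.4 and 12.4 CPM in NTC macrophages (log2FC 5.80 ± 0.07, adjusted p = 1.48e-11).

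Of 35 tested antiviral effectors, 25 rose, against 5.63% of all genes tested, with a median log2FC of 2.70, and 12 of the 20 ISGs are among the 35. Cmpk2, Ifi44 and Oasl1 met the filter through sgRNA 2 libraries alone. Cmpk2, a mitochondrial nucleotide kinase encoded beside Rsad2, was at 81.2, 171, 95.7, 108 and 101 CPM in sgRNA 2 macrophages and at 0.428, 0.262 and 0.567 CPM in NTC macrophages (log2FC 7.74 ± 0.25, adjusted p = 8.94e-09). sgRNA 2 replicate 2 was highest for it, and every NTC library was under 1 CPM. The GTPases Mx1 (log2FC 3.95) and Mx2 (log2FC 4.45), which block viral replication, also rose, as did Oasl2 (log2FC 5.42). Isg15, a ubiquitin-like protein that is attached to other proteins, was at 152, 172, 158, 162 and 185 CPM in sgRNA 2 macrophages and at 11.05, 11.2 and 9.07 CPM in NTC macrophages (log2FC 3.98, adjusted p = 1.26e-09). Tetherin, encoded by Bst2, had a log2FC of 1.65, and Ifitm3, which blocks viral entry, had 1653, 1708, 1673, 1598 and 1756 CPM with sgRNA 2 against 1449, 1427 and 1178 CPM with NTC (log2FC 0.32), both short of the threshold.

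Of 14 guanylate-binding proteins and immunity-related GTPases 12 were tested and rose, against 5.63% of all genes tested, with a median of 4.79, or 4.70 with Gbp4 at its bound. Gbp2, Gbp3, Gbp4, Gbp5, Iigp1 and Tgtp2 met the filter through sgRNA 2 libraries alone, so that this count and median are in part set by the filter. These proteins attack the membranes of vacuoles that hold pathogens. Gbp3 was at 65.4, 64.8, 54.7, 62.7 and 60.7 CPM in sgRNA 2 macrophages and at 0.885, 1.85 and 0.742 CPM in NTC macrophages (log2FC 5.71 ± 0.23, adjusted p = 3.93e-08). Iigp1 was at 10.2, 11.7, 13.2, 17.9 and 24.3 CPM in sgRNA 2 macrophages and at 0.249, 0.596 and 0 CPM in NTC macrophages (log2FC 5.68, adjusted p = 1.31e-05). Tgtp2 was at 55.6, 79.5, 73.6, 64.8 and 83.8 CPM in sgRNA 2 macrophages and at 0.887, 4.56 and 1.04 CPM in NTC macrophages (log2FC 5.35, adjusted p = 4.17e-06). The spread within sgRNA 2 libraries was larger for Iigp1 than for Gbp3, and NTC replicate 2 was the highest of its group in all 3. Gbp4 was at least 26.8-fold higher, Gbp2 had a log2FC of 5.19 and Irgm1 of 2.93.

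Of 19 tested chemokines and cytokines, 6 rose and 1 fell, against 5.63% and 2.45% of all genes tested, with a median of 0.68. Ccl5, which attracts T cells and monocytes, was at 148, 146, 126, 143 and 153 CPM in sgRNA 2 macrophages and at 2.82, 3.73 and 1.68 CPM in NTC macrophages (log2FC 5.72 ± 0.20, adjusted p = 1.48e-08). Ccl2, an attractant of monocytes, was at 85.8, 81.6, 77.5, 82.3 and 83.0 CPM in sgRNA 2 macrophages and at 7.80, 8.76 and 7.58 CPM in NTC macrophages (log2FC 3.34, adjusted p = 8.43e-10). Both were low in every NTC library. Cxcl10, a ligand of CXCR3, was at 4.82, 4.58, 5.10, 4.97 and 6.77 CPM in sgRNA 2 macrophages and at 0.847, 0.965 and 0.590 CPM in NTC macrophages (log2FC 2.58, adjusted p = 3.44e-06), with replicate 5 above the rest of its group. Csf1, which encodes the M-CSF in which these cells were also grown, was at 11.6, 15.8, 10.6, 10.6 and 10.7 CPM in sgRNA 2 macrophages and at 1.68, 2.55 and 1.44 CPM in NTC macrophages (log2FC 2.61, adjusted p = 3.49e-06). These 4 had no overlap between groups, and Ccl7 (log2FC 2.49) and Il27 (log2FC 2.23) made up the 6. Cxcl10 and Il27 met the filter through sgRNA 2 libraries alone. The member that fell was Il1b, which met the filter through NTC libraries alone, at 0.0456, 0, 0.0321, 0 and 0.809 CPM in sgRNA 2 macrophages and at 1.29, 1.39 and 1.30 CPM in NTC macrophages (log2FC -3.01, adjusted p = 0.00390); replicate 5 of sgRNA 2 held most of the reads in its group. With 1 or 0.5 CPM added before the log, its log2FC was -1.03 or -1.55, no longer a DEG. Il6 and Il17a were at 0 in all 8 libraries.

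Among 13 tested genes of MHC class I presentation, 1 rose, a share near the 5.63% of all genes tested, with a median of 0.96. Tap1, which moves peptides into the endoplasmic reticulum, was at 116, 135, 125, 129 and 135 CPM in sgRNA 2 macrophages and at 16.97, 26.2 and 24.2 CPM in NTC macrophages (log2FC 2.53 ± 0.13, adjusted p = 1.80e-07). H2-K1 had a log2FC of 0.90 and B2m, the light chain, of 0.46, short of the threshold. The 3 tested genes of MHC class II had a median of -0.80 that did not pass it either. Cd74, the invariant chain, had 17.2, 19.3, 17.6, 15.7 and 20.3 CPM with sgRNA 2 against 68.4, 86.1 and 59.4 CPM with NTC (log2FC -1.97, adjusted p = 8.90e-07), with all sgRNA 2 libraries below the NTC libraries; under the same thresholds it became a DEG in 3 alternatives, with a log2FC of -2.01 to -2.09.

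The libraries of both groups carried the markers of macrophages. Csf1r, the receptor of M-CSF, had 1087, 1195, 1223, 1131 and 1285 CPM with sgRNA 2 against 3598, 3429 and 3115 CPM with NTC (log2FC -1.51, adjusted p = 8.67e-08), and Cd68, a lysosomal protein of macrophages, had 2601, 2417, 2438, 2418 and 2509 CPM with sgRNA 2 against 2651, 2599 and 2369 CPM with NTC. The log2FC of Cd68 was -0.04 and became positive with the values as deposited or after quantile normalization, and that of Ptprc, or CD45, was 0.01 and became negative under other settings. Of the 13 macrophage genes that the study plotted as canonical, also on samples of the same study, 3 fell, against 2.45% of all genes tested, with a median of -0.35. In bulk samples fewer cells of a type and less RNA per cell cannot be told apart. Emr1, which encodes F4/80, was at 401, 395, 405, 391 and 420.2 CPM in sgRNA 2 macrophages and at 2271, 2021 and 1916 CPM in NTC macrophages (log2FC -2.36 ± 0.06, adjusted p = 2.30e-09). Mertk, a receptor for the uptake of dead cells, was at 10.2, 10.04, 10.3, 12.1 and 11.3 CPM in sgRNA 2 macrophages and at 59.6, 59.9 and 54.4 CPM in NTC macrophages (log2FC -2.42 ± 0.09, adjusted p = 1.95e-08). Aif1, which encodes IBA1, was at 3.92, 4.98, 3.06, 3.19 and 4.15 CPM in sgRNA 2 macrophages and at 21.7, 24.8 and 19.96 CPM in NTC macrophages (log2FC -2.51 ± 0.17, adjusted p = 1.22e-06). In these 3 genes each sgRNA 2 library was below each NTC library. Itgam, which encodes CD11b, had 189, 156, 199, 188 and 183 CPM with sgRNA 2 against 636, 496 and 486 CPM with NTC (log2FC -1.55). Msr1, a scavenger receptor, lay the other way, at 560.5, 548, 594, 563 and 579 CPM in sgRNA 2 macrophages and at 168, 182 and 187 CPM in NTC macrophages (log2FC 1.67). Neither passed the threshold.

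**Figure D2:**
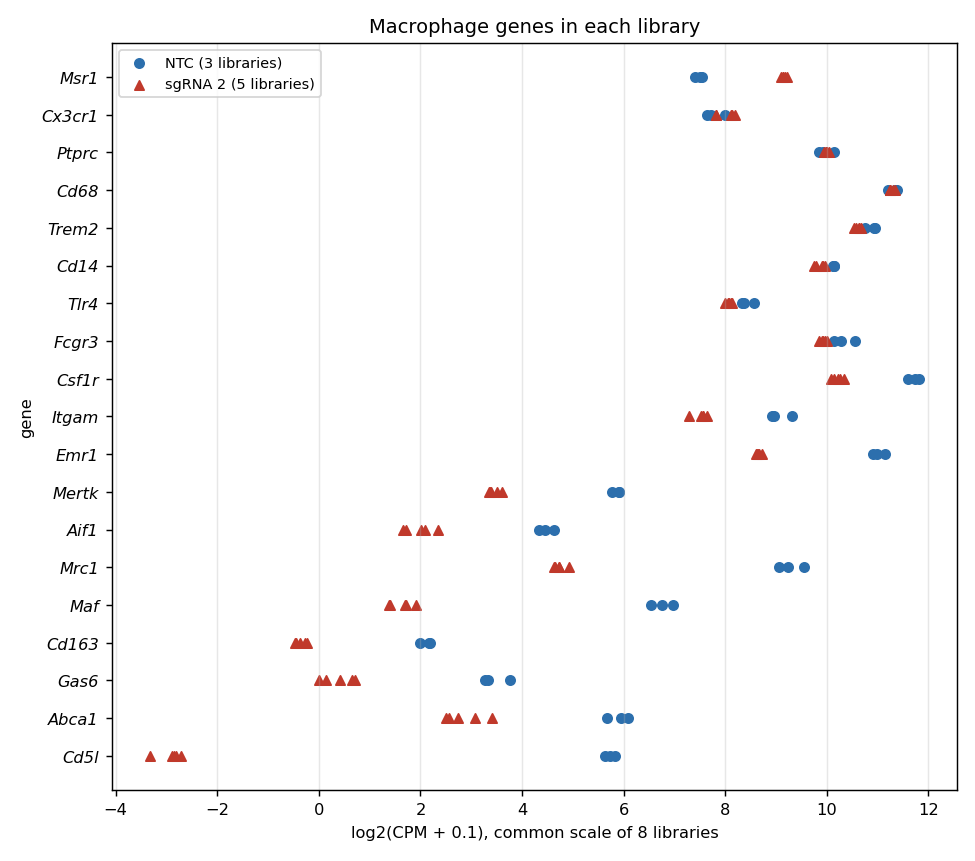
Level of the 13 macrophage genes that the study plotted and of Mrc1, Maf, Cd163, Gas6, Abca1 and Cd5l in each of the 8 libraries, as log2(CPM + 0.1), with red triangles for the 5 sgRNA 2 libraries and blue circles for the 3 NTC libraries. Cd5l (at least 333-fold lower), Maf (log2FC -5.12) and Mrc1 (log2FC -4.55) show the widest gaps between groups, with sgRNA 2 to the left, and in the top row Msr1 has sgRNA 2 to the right, short of the threshold.

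Among 25 further genes of macrophage function, 8 fell, against 2.45% of all genes tested, with a median of -0.39 whose sign changed under 1 alternative. Of the 8, Cd163 met the filter through NTC libraries alone. The transcription factor gene Maf was at 3.68, 2.53, 2.51, 3.14 and 3.20 CPM in sgRNA 2 macrophages and at 125, 92.4 and 107 CPM in NTC macrophages (log2FC -5.12 ± 0.15, adjusted p = 5.33e-09). Mrc1, the mannose receptor CD206, was at 30.3, 24.5, 25.1, 26.2 and 26.5 CPM in sgRNA 2 macrophages and at 749, 535 and 598 CPM in NTC macrophages (log2FC -4.55 ± 0.11, adjusted p = 1.84e-09). Both were expressed in all 8 libraries and far apart between groups. Gas6, a ligand that bridges dead cells to MERTK, was at 1.46, 0.896, 1.24, 1.54 and 1.00 CPM in sgRNA 2 macrophages and at 13.6, 9.50 and 9.94 CPM in NTC macrophages (log2FC -3.07, adjusted p = 1.69e-06). Abca1, which exports cholesterol to lipoproteins, was at 10.6, 8.32, 5.81, 5.59 and 6.53 CPM in sgRNA 2 macrophages and at 61.5, 51.0 and 67.3 CPM in NTC macrophages (log2FC -3.04, adjusted p = 1.19e-06). The groups did not overlap in either gene. Cd163 (log2FC -2.48), Ctsk (log2FC -2.29), C1qa (log2FC -2.12) and Apoe were the other 4. The log2FC of C1qa was -1.92 without NTC replicate 2 and -1.98 with the values as deposited, no longer a DEG. Apoe, a lipoprotein component, was at 1.40, 3.86, 1.49, 1.96 and 1.38 CPM in sgRNA 2 macrophages and at 3.58, 72.6 and 7.04 CPM in NTC macrophages (log2FC -2.66 ± 0.82, adjusted p = 0.0158). Its groups overlapped, and without NTC replicate 2 its log2FC was -1.39, no longer a DEG. Osteopontin, encoded by Spp1, had a log2FC of 1.81, Lgals3 of 1.30 and lysozyme, encoded by Lyz2, of -1.24, all short of the threshold.

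Of 15 mitosis genes tested 13 rose in sgRNA 2 macrophages, with a median of 2.85, and of 18 DNA replication genes 8 rose, with a median of 1.85, against 5.63% of all genes tested. Cenpf, Plk1 and Ccne1, which count among them, met the filter through sgRNA 2 libraries alone. Ccnb2, a cyclin of mitosis, was at 28.0, 33.6, 31.9, 30.7 and 32.2 CPM in sgRNA 2 macrophages and at 1.64, 2.07 and 2.41 CPM in NTC macrophages (log2FC 3.89 ± 0.13, adjusted p = 9.54e-09). Top2a, which untangles DNA, was at 131, 106, 121, 120.3 and 111 CPM in sgRNA 2 macrophages and at 12.98, 13.1 and 10.97 CPM in NTC macrophages (log2FC 3.25 ± 0.09, adjusted p = 3.48e-09). Mki67, which marks cycling cells, was at 33.2, 25.7, 34.1, 34.2 and 29.9 CPM in sgRNA 2 macrophages and at 4.52, 4.14 and 4.11 CPM in NTC macrophages (log2FC 2.85, adjusted p = 3.32e-08). In each of the 3 genes the sgRNA 2 libraries were at similar levels, all above NTC. Rrm2, a subunit of the enzyme that makes deoxynucleotides, was at 161, 192, 174, 164 and 193 CPM in sgRNA 2 macrophages and at 6.13, 8.17 and 7.35 CPM in NTC macrophages (log2FC 4.60 ± 0.10, adjusted p = 1.14e-09). Mcm6, a part of the replicative helicase, was at 39.2, 114, 62.6, 64.8 and 64.8 CPM in sgRNA 2 macrophages and at 1.28, 3.82 and 5.55 CPM in NTC macrophages (log2FC 4.38, adjusted p = 1.84e-05). Cdc6, which loads that helicase, was at 19.5, 20.5, 21.2, 19.04 and 23.1 CPM in sgRNA 2 macrophages and at 1.80, 2.55 and 1.80 CPM in NTC macrophages (log2FC 3.29, adjusted p = 4.69e-08). Mcm6 varied more among replicates than Rrm2 and Cdc6, and for all 3 the groups were apart. Plk1 (log2FC 3.72), Kif11 (log2FC 3.68), Ccnb1 (log2FC 3.22), Ccne2 (log2FC 3.92) and Mcm2 (log2FC 2.50) also rose, while Cdk1 had a log2FC of 1.40, short of the threshold.

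Of 21 cell death genes tested, 4 rose, against 5.63% of all genes tested, with a median of 0.70. One was Zbp1, and another was Mlkl, which ruptures the membrane in necroptosis, at 64.0, 51.1, 48.2, 55.8 and 54.3 CPM in sgRNA 2 macrophages and at 9.42, 7.15 and 6.93 CPM in NTC macrophages (log2FC 2.80 ± 0.12, adjusted p = 7.38e-08). Bcl2, an inhibitor of apoptosis, was at 28.3, 26.5, 30.0, 25.8 and 28.9 CPM in sgRNA 2 macrophages and at 4.77, 3.29 and 4.41 CPM in NTC macrophages (log2FC 2.73, adjusted p = 9.36e-08). Tnfsf10, which encodes TRAIL, was at 12.2, 11.9, 11.6, 11.7 and 12.4 CPM in sgRNA 2 macrophages and at 2.76, 2.50 and 1.67 CPM in NTC macrophages (log2FC 2.35, adjusted p = 1.12e-06). The 3 did not overlap between groups. Ripk3, the kinase that activates MLKL, had a log2FC of 1.12, and Bcl2l1, another inhibitor of apoptosis, of 1.63, both short of the threshold.

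Of 10 tested targets of p53, 2 rose, against 5.63% of all genes tested, with a median of 0.62. Gdf15, a secreted stress hormone that met the filter through sgRNA 2 libraries alone, was at 8.06, 22.5, 9.50, 12.4 and 10.8 CPM in sgRNA 2 macrophages and at 0.227, 0.0562 and 0.623 CPM in NTC macrophages (log2FC 5.16, adjusted p = 9.65e-06). Mdm2, the ligase that degrades p53, was at 453, 499, 466, 484 and 460.2 CPM in sgRNA 2 macrophages and at 91.8, 104 and 154 CPM in NTC macrophages (log2FC 2.05 ± 0.14, adjusted p = 1.19e-06). Replicate 2 was the highest of the sgRNA 2 libraries in both. The log2FC of Mdm2 was 1.90 without NTC replicate 1 and 1.99 without NTC replicate 2 or with library weights, no longer a DEG. Cdkn1a, which encodes the inhibitor p21, had a log2FC of 0.16. Of 11 genes of the integrated stress response, 4 rose, against 5.63%, with a median of 1.25. Phgdh, the first enzyme of serine synthesis, was at 39.9, 38.8, 37.6, 39.1 and 40.2 CPM in sgRNA 2 macrophages and at 2.97, 3.30 and 2.29 CPM in NTC macrophages (log2FC 3.75, adjusted p = 6.68e-09). Ddit3, which encodes CHOP, was at 126, 129.8, 120.3, 129 and 132 CPM in sgRNA 2 macrophages and at 26.4, 24.2 and 23.4 CPM in NTC macrophages (log2FC 2.37, adjusted p = 2.66e-09). Both had groups that were apart, and Trib3 (log2FC 3.40) and Chac1 (log2FC 2.97) made up the 4, Chac1 having met the filter through sgRNA 2 libraries alone.

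Of 13 tested genes of sterol synthesis and uptake, 3 rose, against 5.63% of all genes tested, 1 of which met the filter through sgRNA 2 libraries alone, with a median of 0.63. Insig1, which holds back the sterol sensor, was at 15.8, 15.1, 17.7, 17.3 and 13.4 CPM in sgRNA 2 macrophages and at 4.03, 2.92 and 4.47 CPM in NTC macrophages (log2FC 2.05, adjusted p = 2.60e-06). Its groups did not overlap, and the log2FC of Insig1 was 1.87 without NTC replicate 2 and 2.00 (just under the threshold) without sgRNA 2 replicate 3, and 1.79 after quantile normalization, no longer a DEG. Srebf2, the transcription factor of the pathway, had a log2FC of 1.5, short of the threshold. Of the 7 other genes mutated in Aicardi-Goutières syndrome that were tested, 1 rose, against 5.63% of all genes tested, with a median of 0.37. It was Ifih1, the gene of MDA5, and Trex1, a nuclease of cytosolic DNA, had a log2FC of 1.06.

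**Figure D3:**
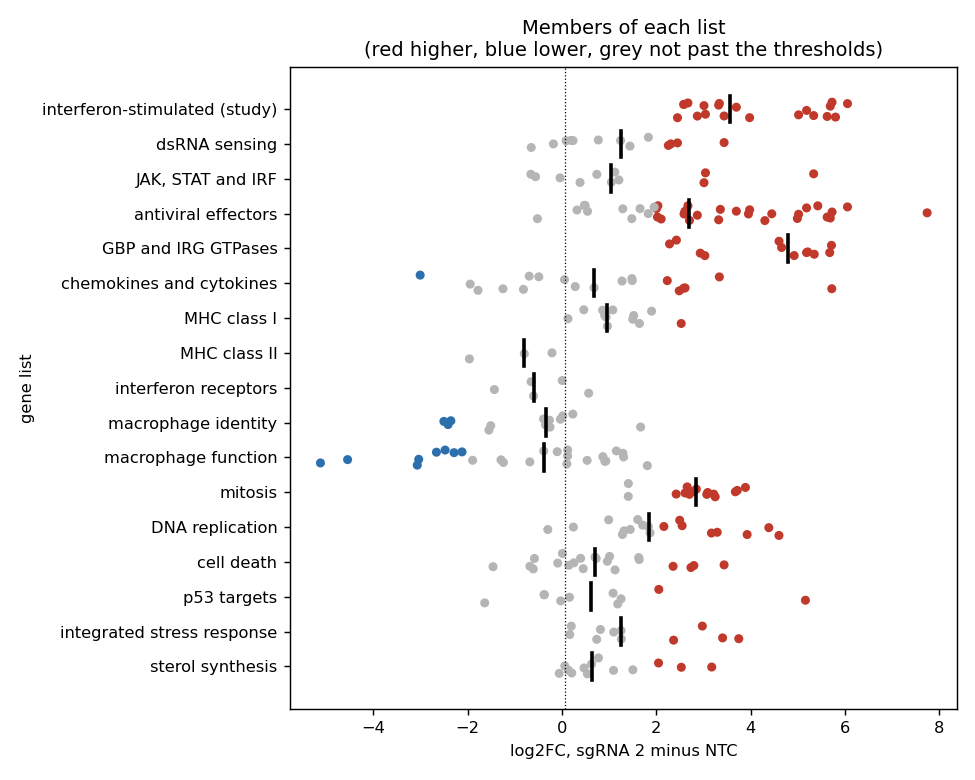
log2FC of sgRNA 2 minus NTC macrophages on the x axis for each tested member of the gene lists on the y axis, in red where higher, in blue where lower and in grey where the thresholds were not passed. A black bar marks the median of each list and the dotted line the median of all genes tested, 0.05; the highest list median is that of the GBP and IRG GTPases, 4.79, in part set by the filter on low values.

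The 10 genes with the largest positive log2FC were Apol9a, Dnaic1, Cmpk2, Phf20l1, Csprs, Ifit1, Espl1, Pkmyt1, Ly6a and Apol9b. All but Ifit1 met the filter through sgRNA 2 libraries alone, so that the filter favours the direction found. Apol9a, of the apolipoprotein L family, was at 78.9, 85.7, 78.2, 79.0 and 90.8 CPM in sgRNA 2 macrophages and at 0, 0 and 0.0518 CPM in NTC macrophages, at least 515-fold higher. Apol9b was at 3.70, 5.56, 5.72, 6.55 and 6.40 CPM with sgRNA 2 and at 0 in the 3 NTC libraries, at least 34.9-fold higher. These 2 genes are close in sequence and may share reads. Dnaic1, an intermediate chain of axonemal dynein, was at 38.3, 40.3, 33.3, 29.3 and 37.6 CPM in sgRNA 2 macrophages and at 0.0515, 0.0302 and 0.0761 CPM in NTC macrophages, at least 223-fold higher. It differed between the guides, since sgRNA 1 macrophages had 0.126, 0.144 and 0.0931 CPM (log2FC 7.28 ± 0.18, adjusted p = 1.38e-09 for sgRNA 2 minus sgRNA 1). Ly6a, which encodes Sca-1, was at 35.4, 53.4, 52.5, 44.5 and 61.8 CPM in sgRNA 2 macrophages and at 1.06, 1.21 and 0.282 CPM in NTC macrophages (log2FC 5.87 ± 0.37, adjusted p = 6.97e-07). Pkmyt1, a kinase that holds back CDK1, was at 8.41, 22.3, 10.6, 12.4 and 10.3 CPM in sgRNA 2 macrophages and at 0.175, 0 and 0.159 CPM in NTC macrophages (log2FC 5.98, adjusted p = 1.04e-06), and Espl1, the separase that splits chromosomes, was at least 42.3-fold higher. Csprs was at 13.5, 16.4, 12.8, 12.3 and 15.95 CPM in sgRNA 2 macrophages and at 0.121, 0.174 and 0 CPM in NTC macrophages (log2FC 6.28, adjusted p = 1.22e-07). Phf20l1 was at 11.4, 9.41, 6.07, 8.91 and 5.81 CPM in sgRNA 2 macrophages and at 0, 5.40e-04 and 0.00439 CPM in NTC macrophages. Its value varies widely among like libraries, as in NTC progenitors at 2.40, 0.126 and 6.03 CPM and NTC macrophages at 0 uM baricitinib at 1.33, 9.43 and 9.34 CPM, so that a value near 0 may be a failed assignment of reads and its difference is uncertain. All 10 had groups apart, by the rule that chose them. Dnaic1 was not alone in differing between the guides. Apol9a (log2FC 2.55), Phf20l1 (3.47), Espl1 (4.70) and Pkmyt1 (2.32) were also higher with sgRNA 2 than with sgRNA 1, and Ly6a was lower (-2.36). Cmpk2, Csprs, Ifit1 and Apol9b were not DEGs between the guides. Against the same NTC libraries, sgRNA 1 had a log2FC of 1.23 for Espl1, not a DEG. At 0 uM baricitinib Espl1 (-3.94) and Pkmyt1 (-2.38) were lower with sgRNA 1 than with NTC.

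The 10 genes with the largest negative log2FC were Cd5l, Tyrobp, Apoc1, Sestd1 and 6 Gm gene models, Gm8203, Gm9843, Gm4294, Gm8430, Gm10288 and Gm12338. All 10 met the filter through NTC libraries alone, so that the filter favours the direction found. Cd5l, a secreted protein of tissue macrophages, was at 0, 0.0526, 0.0354, 0.0384 and 0.0417 CPM in sgRNA 2 macrophages and at 57.1, 52.9 and 49.3 CPM in NTC macrophages, at least 333-fold lower. Apoc1, a lipoprotein component, was at 0.309, 0.326, 0.222, 0.321 and 0.627 CPM in sgRNA 2 macrophages and at 83.9, 48.9 and 64.4 CPM in NTC macrophages (log2FC -7.18 ± 0.28, adjusted p = 2.60e-08). Sestd1 was at 0, 0.0547, 0, 0.0689 and 0.150 CPM in sgRNA 2 macrophages and at 19.6, 21.4 and 20.8 CPM in NTC macrophages (log2FC -7.15, adjusted p = 1.09e-07); sgRNA 1 macrophages had 9.59, 10.9 and 9.71 CPM of it, sgRNA 2 progenitors 0, 0 and 0.0204 CPM and NTC progenitors 4.26, 3.66 and 4.32 CPM. In these 3 genes the groups were far apart, with every sgRNA 2 library near 0. Tyrobp, which encodes the adaptor DAP12, was listed at 0 in the 5 sgRNA 2 libraries and at 55.1, 2.00 and 114 CPM in the NTC libraries. It was at 56.4, 342 and 130 CPM in sgRNA 1 macrophages. It was also at 0 in the progenitors and in both groups at 0 uM baricitinib, so that an exact 0 may be a failed assignment of reads and the value is uncertain. Gm models can share reads with the genes they copy, and their values are uncertain as well. Gm9843 was at 62.7, 93.7 and 60.2 CPM in sgRNA 1 macrophages and 32.4, 51.6 and 41.6 CPM in NTC progenitors. It was at 0, 0 and 0.387 CPM in sgRNA 2 progenitors and at 0 in both groups at 0 uM baricitinib. Gm8203, Gm10288 and Gm12338 had this pattern too, with values at or near 0 in the same libraries, while Gm4294 and Gm8430 did not. Why these values differ between lines and experiments was not tested. Such models and pseudogenes were 69 of the 259 lower and 19 of the 596 higher DEGs. With 1 CPM added before the log in place of 0.1, C1qa, Ccl7, Cd163, Chac1, Ctsg, Cxcl10, Il27, Insig1, Kit, Ngp and Tnfsf10 were no longer DEGs, with the direction of each as before.

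**Figure D4:**
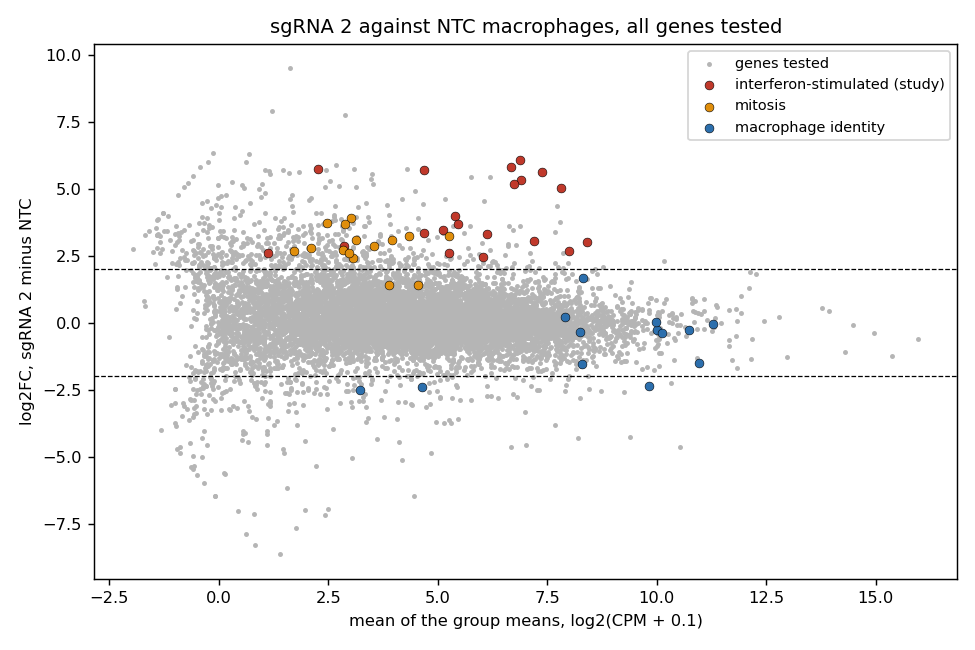
Each point is 1 of the 10586 genes tested, with the mean of its group means on the x axis, as log2(CPM + 0.1), and the log2FC of sgRNA 2 minus NTC on the y axis, with dashed lines at the log2FC that a DEG needed. The 20 ISGs (red) and 13 of the 15 mitosis genes (orange) lie above the upper line, and 3 of the 13 macrophage genes (blue) below the lower line.

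Markers of other cells were measured beside these results, and their part in them was not tested. Of 10 progenitor markers 2 met the filter on low values, Kit and Hoxb8, both through sgRNA 2 libraries alone, so that their direction supports nothing. Kit, the receptor of stem cell factor, was at 1.34, 1.76, 1.11, 2.64 and 0.901 CPM in sgRNA 2 macrophages and at 0, 0.518 and 0 CPM in NTC macrophages. The list summed to 4.97, 5.34, 6.40, 7.25 and 5.76 CPM in sgRNA 2 macrophages and 3.23, 3.31 and 3.81 CPM in NTC macrophages, and Hoxb8, whose symbol the ER-Hoxb8 fusion shares, was its most abundant gene, at 1.79, 1.22, 3.03, 2.41 and 2.24 CPM in sgRNA 2 macrophages and at 0.317, 0.444 and 1.24 CPM in NTC macrophages. Flt3, a marker of early progenitors, was at most 0.200 CPM in the 8 libraries. Of 12 neutrophil markers 6 met the filter, and 4 of these, Mpo, Ngp, Ctsg and Prtn3, met it through sgRNA 2 libraries alone, so that no count is given. Mpo, a granule enzyme, was at 4.04, 3.48, 3.01, 3.01 and 4.27 CPM in sgRNA 2 macrophages and at 0.219, 0 and 0.0375 CPM in NTC macrophages. Ngp had 1.67, 1.38, 1.21, 1.32 and 1.17 CPM with sgRNA 2 against 0, 0 and 0 CPM with NTC, and Ctsg had 1.78, 1.22, 1.54, 0.894 and 1.09 CPM with sgRNA 2 against 0.128, 0.0522 and 0.0735 CPM with NTC. The list summed to 30.5, 27.0, 28.5, 25.4 and 31.1 CPM in sgRNA 2 macrophages and 20.9, 9.48 and 15.3 CPM in NTC macrophages, with S100a8 the most abundant at 16.6, 13.3, 14.4, 14.5 and 17.8 CPM with sgRNA 2 against 14.5, 5.65 and 10.1 CPM with NTC, where the groups overlapped. Of its defining markers, Elane had 0.558, 0.213, 0.322, 0.0777 and 0.377 CPM with sgRNA 2 against 0.0865, 0.0528 and 0.0371 CPM with NTC, and Ly6g was at most 0.0533 CPM with sgRNA 2 and at most 0.152 CPM with NTC.

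Of 9 markers of lymphocytes and natural killer cells, too few reads were found for a test of any. They summed to 0.504, 0, 0.105, 0.396 and 0.455 CPM in sgRNA 2 macrophages and 0.288, 1.44 and 0.122 CPM in NTC macrophages, with Cd8a the most abundant, and Ncr1 and Klra8 were at 0 in all 8 libraries. Cd3e was at 0 in all 5 sgRNA 2 libraries. Of 10 markers of dendritic, mast and basophil cells, 1 was tested, Siglech at 3.34, 2.47, 3.58, 3.60 and 4.19 CPM with sgRNA 2 against 0.984, 2.24 and 1.25 CPM with NTC (log2FC 1.21, not a DEG), and it was the most abundant. That list summed to 4.90, 4.11, 4.72, 5.56 and 5.37 CPM in sgRNA 2 macrophages and 2.81, 4.35 and 3.66 CPM in NTC macrophages, with Ccr7, Mcpt8 and Fcer1a at 0 in all 8. RNA of mitochondrial genes took between 0.325% and 0.358% of the CPM with sgRNA 2 and 0.890%, 1.21% and 1.15% with NTC, and the 10 most abundant genes between 20.5% and 21.8% against 27.9%, 26.7% and 26.9%.

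The sgRNA 2 difference was set against the same difference in sgRNA 2 and NTC progenitors, to ask whether it depended on differentiation. The labels do not state whether the macrophages came from these progenitor cultures. The 20 ISGs had a mean level of 7.96 ± 0.07 (SD, n = 5) on the log2 scale in sgRNA 2 macrophages and 3.89 ± 0.10 (SD, n = 3) in NTC macrophages. In progenitors it was 1.36 ± 0.02 (SD, n = 3) with sgRNA 2 and 1.21 ± 0.09 (SD, n = 3) with NTC. The interaction, the difference in macrophages minus that in progenitors, was called for 19 of the 20 ISGs in the positive direction, against 5.38% of 11181 genes tested, with a median of 3.72 against -0.02 for all genes. Ifit1 was at 1.89, 1.34 and 1.49 CPM in sgRNA 2 progenitors and 0.432, 1.09 and 0.846 CPM in NTC progenitors, and its interaction was 5.08 (adjusted p = 1.15e-08). Stat2, with an interaction of 1.63, was the ISG that was not called. Ifnb1 was at 0 in all sgRNA 2 progenitors. In all, 897 genes, or 8.02%, differed in this way.

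The mitosis genes were at 4.91 ± 0.05 (SD, n = 5) in sgRNA 2 macrophages and 2.06 ± 0.06 (SD, n = 3) in NTC macrophages, but at 7.61 ± 0.05 (SD, n = 3) and 7.63 ± 0.07 (SD, n = 3) in the progenitors, on the same scale. The interaction was called in the positive direction for 13 of the 15 genes, with a median of 3.04. It was called so for 7 of the 18 replication genes, against 5.38% of all genes tested. Top2a was at 431, 459.9 and 416 CPM in sgRNA 2 progenitors and 482, 396 and 362 CPM in NTC progenitors. By the mean of the mitosis genes, the NTC macrophages thus lay further from NTC progenitors than sgRNA 2 macrophages did from sgRNA 2 progenitors. Of the 13 macrophage genes, 4 were called for the interaction in the negative direction, against 2.64% of all genes tested, with a median of -0.81. Emr1 was not among them: it was at 12.8, 12.3 and 11.3 CPM in sgRNA 2 progenitors and 114, 58.1 and 48.7 CPM in NTC progenitors, with a log2FC of -2.49, and its interaction was 0.13 (adjusted p = 0.734). The interaction was also called in the positive direction for 9 of the 11 neutrophil markers tested, against 5.38% of all genes tested, with a median of 4.13. Mpo, Ngp and Ctsg were near 0 in NTC macrophages, so that the size of their interaction depends on the constant added before the log. Of these markers, Mpo was at 2505, 2191 and 2702 CPM in sgRNA 2 progenitors and at 25123, 18777 and 16386 CPM in NTC progenitors. Mmp8 lay the other way, at 144, 184 and 122 CPM in sgRNA 2 progenitors and at 28.6, 70.6 and 49.6 CPM in NTC progenitors.

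Macrophages with the other guide, sgRNA 1, were compared with sgRNA 2 macrophages directly, 5 against 3 libraries. The 2 guides differed by 460 DEGs of 10697 genes tested, or 4.30%, with 240 higher (2.24%) and 220 lower (2.06%) with sgRNA 2. The 20 ISGs had a median log2FC of -0.47 between the guides, from -1.85 to 1.35, within the threshold, and all genes had one of -0.04. Adar had a log2FC of -0.12 and Ifit1 of -0.04. Of the 13 macrophage genes 1, Aif1, was lower with sgRNA 2, and Ly6a was lower too (log2FC -2.36 ± 0.45, adjusted p = 9.22e-04). Maf was at 17.2, 16.7 and 17.9 CPM in sgRNA 1 macrophages, above sgRNA 2 (log2FC -2.56 ± 0.14, adjusted p = 1.80e-07). Against NTC macrophages the log2FC of Emr1 was -2.36 for sgRNA 2 and -0.81 for sgRNA 1, that of Mrc1 was -4.55 and -3.10, and that of Ifit1 was 6.05 and 6.10. These pairs of values use the same 3 NTC libraries. The sgRNA 1 libraries lie in the normalization set of NTC replicates 1 and 3, so that guide and set cannot be told apart for sgRNA 2 against sgRNA 1, as for sgRNA 2 against NTC, while sgRNA 1 shares its set with 2 of the 3 NTC libraries. Of the 15 mitosis and 18 replication genes 0 were DEGs between the guides, with log2FC from -0.03 to 0.83 and from -0.11 to 1.92. Against the same NTC libraries the log2FC of Rrm2 was 4.60 for sgRNA 2 and 3.34 for sgRNA 1, that of Mki67 was 2.85 and 2.24, that of Mcm6 was 4.38 and 3.01, and that of Top2a was 3.25 and 2.43. These 4 genes were DEGs with either guide.

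A separate experiment of the study, sgRNA 1 against NTC macrophages at 0 uM baricitinib, 3 against 3 libraries, shares no library with the sgRNA 2 comparison. It had 379 DEGs of 10288 genes tested, or 3.68%. There 19 of the 20 ISGs were higher, against 1.95% of all genes, with a median of 3.76 against -0.01 for all genes. Ifit1 was at 455, 496 and 569.5 CPM with sgRNA 1 and 3.40, 4.05 and 2.68 CPM with NTC (log2FC 7.18 ± 0.17, adjusted p = 3.58e-07). Ccl2 was the ISG that was not called (log2FC 1.26). Of the genes tested in both, 104 were higher in both, 21.0% of the sgRNA 2 list and 55.0% of the other, and 26 were lower in both, 14.5% and 16.7%. Cd5l was one that was lower in both, with a log2FC of -5.56 at 0 uM. Ddit3 was higher in both (log2FC 2.89 at 0 uM).

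Some cell cycle genes were DEGs in the other direction in that experiment. Of 15 mitosis genes 4 were lower with sgRNA 1 at 0 uM, against 1.73% of all genes, with a median of -1.60, and of 18 replication genes 4, with a median of -1.58. Rrm2 was at 45.4, 81.7 and 112 CPM with sgRNA 1 and 344, 420.2 and 369.9 CPM with NTC (log2FC -2.33 ± 0.28, adjusted p = 6.86e-04). Mki67 was at 14.04, 25.3 and 22.9 CPM and 86.5, 117 and 95.1 CPM (log2FC -2.29 ± 0.23, adjusted p = 2.27e-04). NTC macrophages at 0 uM thus had more Rrm2 and Mki67 RNA than sgRNA 1 macrophages. Their Rrm2 values stand beside 6.13, 8.17 and 7.35 CPM in the NTC macrophages of the sgRNA 2 comparison, from another set and scale, and this gap was not tested. On the log2 scale the mean of the mitosis genes was 5.76 ± 0.27 (SD, n = 3) with NTC and 4.12 ± 0.30 (SD, n = 3) with sgRNA 1. Abca1 and Apoc1, lower with sgRNA 2, were higher with sgRNA 1 at 0 uM (log2FC 2.81 and 2.34). Against the NTC macrophages of the sgRNA 2 comparison, sgRNA 1 macrophages had a log2FC of -3.35 for Abca1 and -3.13 for Apoc1. With the same guide, sgRNA 1, Rrm2, Mki67, Abca1 and Apoc1 were thus DEGs in opposite directions in the 2 experiments. Emr1 had a log2FC of 0.64 and Mrc1 of 0.95 at 0 uM, short of the threshold. In all, 55 genes were DEGs in opposite directions, 46 higher with sgRNA 2 (9.29% of its list, 29.5% of the other) and 9 lower (5.03% and 4.76%), and 6 of the 55 were in the cell cycle lists. The NTC macrophages and the cultures differ between the experiments as well as the guide, and the difference between them was not tested.

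**Figure D5:**
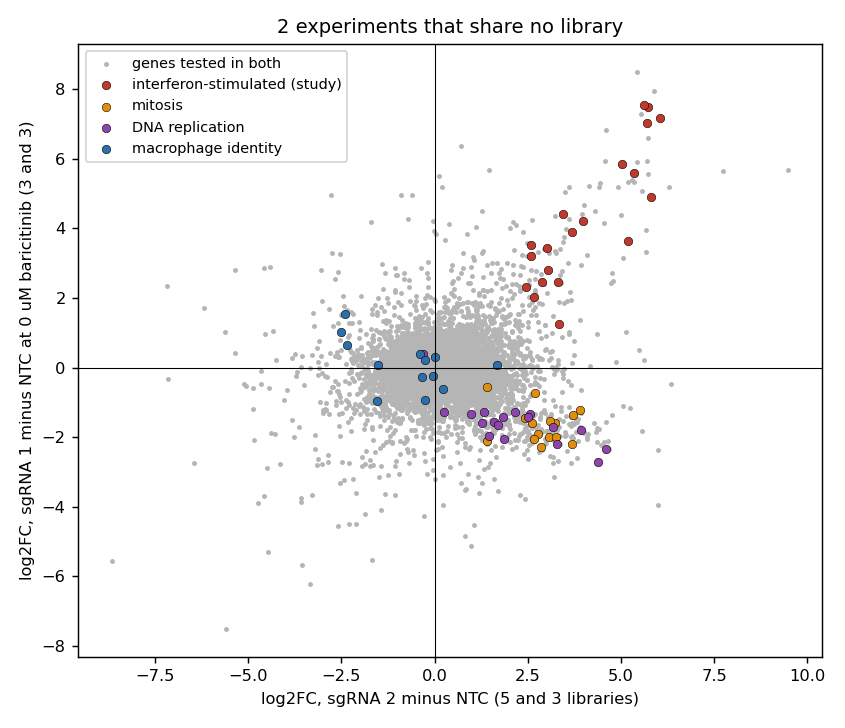
log2FC of sgRNA 2 minus NTC macrophages (x axis) against log2FC of sgRNA 1 minus NTC macrophages at 0 uM baricitinib (y axis) for the genes tested in both; the experiments share no library. ISGs are red, mitosis genes orange, DNA replication genes purple, macrophage genes blue and all others grey. The ISGs lie at the upper right, and cell cycle genes such as Rrm2 lie to the right on the x axis (4.60) and below 0 on the y axis (-2.33).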

How the data were processed

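RNA from mouse ER-Hoxb8 cells was sequenced in bulk. The authors trimmed reads, assigned them to mouse transcripts with kallisto 0.46.0, and deposited TMM-normalized CPM as log2 values with a small offset. In all 29957 rows were deposited, of which 29956 have a gene name, and the libraries fall into 6 sets that share a lowest value: the sgRNA 2 libraries make up a set of 8, NTC macrophage replicates 1 and 3 are in a set of 11, and NTC macrophage replicate 2 is alone.

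CPM were rebuilt as 2 to the power of the value minus the same for the lowest value of the library (values under 0.0001 were set to 0). The 8 libraries were rescaled together by a mean of log ratios trimmed by 0.3 (ratios) and 0.05 (levels), and log2(CPM + 0.1) was taken. A gene was tested if it exceeded 1 CPM in 3 or more libraries of the fit, by limma 3.58.1 in R 4.3.3 (eBayes with trend, Benjamini-Hochberg over all genes tested). The main comparison used 8 libraries in 2 groups, the interaction with stage 14 in 4 groups, and sgRNA 2 against sgRNA 1 11 in 3 groups. The experiment at 0 uM baricitinib lies within 1 set and used the deposited values of 6 libraries. The model was tested on simulated data with 200 shifted genes (seed 20).

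The depth of a library was estimated from the finest spacing of its CPM values and was 17.1 to 25.15 M counts (median 21.4) in sgRNA 2 and 20 to 25.6 M (median 22.45) in NTC macrophages. Folds against a group at or under 3 counts in every library are lower bounds set at 3 counts per library, and they depend on this estimate. To see whether replicate numbers mark pairs, group means were subtracted: libraries of the 2 groups with the same number correlated at -0.02 to 0.20 (across genes), and 1 of 3 was closest to its own number, so that they were not paired.

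Genes named in the text are Adar, the 10 DEGs furthest up and the 10 furthest down by log2FC (with no overlap of groups and a mean of 5 CPM or more in the higher group), for each list the 4 DEGs with the largest log2FC in either direction, members needed to describe a list, and the 20 ISGs and 13 macrophage genes the study plotted. A few genes that this choice covers are not reported here. Members and lists were chosen with earlier results of these data known. Other normalizations, constants, filters, thresholds, library weights and leaving out each library were tried. Promoters came from RefSeq tables. Tables and figures were made with data.table (1.17.8), Python 3.11.15, numpy 2.4.6, pandas 2.3.3 and matplotlib 3.10.9.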

Additional observations from a re-analysis of the deposited data

Results flagged for a closer look

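In 6 of 129 named genes 1 library of the 5 sgRNA 2 macrophages lay far from the other 4, where chance alone sets a library apart in about 1 of 20 groups. Replicate 1 had 3.70 CPM of Apol9b, against 5.56 to 6.55 CPM in the others, and 0 CPM of Cd5l, against 0.0354 to 0.0526 CPM; all 5 values of Cd5l are under 3 counts and differ within counting error. Replicate 2 had 15.8 CPM of Csf1, against 10.6 to 11.6 CPM. Replicate 4 had 77.8 CPM of Mavs, against 84.6 to 86.6 CPM. Replicate 5 had 0.809 CPM of Il1b, against 0 to 0.0456 CPM, and 6.77 CPM of Cxcl10, against 4.58 to 5.10 CPM.

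The sgRNA 2 difference was not the same in macrophages and progenitors for 897 genes, by the interaction test. Between sgRNA 2 and sgRNA 1 macrophages 460 genes were called. In 55 genes the direction was opposite for sgRNA 2 and for sgRNA 1 at 0 uM baricitinib, and that difference itself was not tested. Genes opposite in this way include Rrm2, Mki67, Kif11, Cdc6 and Mcm6. Against the NTC macrophages of the sgRNA 2 comparison, sgRNA 1 macrophages had a log2FC of 3.34, 2.24, 3.30, 2.39 and 3.01 for them, in the direction of sgRNA 2.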

How the results depend on the processing

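Of 129 named genes 95 were DEGs, 16 of these lost the call under at least 1 alternative, and 0 changed direction by limma under any alternative run. These counts leave out genes that an alternative did not test: 14 of the 95 DEGs under a stricter filter (5 libraries over 1 CPM), and 11, all lower, without any 1 NTC library, since NTC libraries alone then cannot meet the filter. Of the genes that were not DEGs, 19 became DEGs with a log2FC of at least 1. Of these Cd74 was also a DEG after quantile normalization (-2.04), without NTC replicate 3 (-2.09) and without sgRNA 2 replicate 5 (-2.01), and Hoxb8 without NTC replicate 3 (2.17). In 2 that were not DEGs the direction changed. Cd68 went from -0.04 to 0.12 with the values as deposited and 0.030 after quantile normalization. Ptprc went from 0.01 to -0.0052 with median of ratios scaling, and when a library was left out it ran from -0.050 without NTC replicate 2 to 0.10 without NTC replicate 1; it was also negative without NTC replicate 3 and without sgRNA 2 replicate 5. The cause was not tested.

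The number of DEGs between sgRNA 2 and NTC macrophages, 855, was 912 with the values as deposited, 849 with median of ratios scaling, 838 after quantile normalization, 610 with a pseudocount of 0.5, 1002 with no filter, 699 with the stricter filter, 819 with library weights, and 849 with a replicate block. Leaving out each library gave 674 to 852. It moved to 487 with a pseudocount of 1 and to 2660 with a log2FC of at least 1; the lower threshold itself adds genes. The lower DEGs, 259, numbered 140, 172 and 156 without NTC replicate 1, 2 and 3, and 139 with the stricter filter. For the interaction, 897, these were 499 and 2438, with 870 for the replicate block and 834 to 906 when a library was left out. For sgRNA 2 against sgRNA 1, 460, they were 207 and 1934, with 442 for the replicate block and 402 to 492 when a library was left out. For sgRNA 1 against NTC at 0 uM, 379, they were 256 and 1156, with 376 for the replicate block and 297 to 375 when a library was left out. The lower DEGs at 0 uM, 178, numbered 97 with a pseudocount of 1 and 115 without NTC replicate 2 of that experiment.

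The median log2FC of the 20 ISGs ran from 3.44 to 3.72 over the alternatives, of the mitosis genes from 2.62 to 3.00, of the replication genes from 1.67 to 2.00 and of the macrophage genes from -0.40 to -0.19. The median of the chemokines and cytokines ran from 0.24 to 1.19 and that of MHC class II from -0.90 to -0.21. Those of the cell death genes ran from 0.39 to 0.84, of the p53 targets from 0.55 to 1.04 and of the sensors from 0.80 to 1.42. That of the other genes of Aicardi-Goutières syndrome ran from 0.22 to 0.52. Depth limits genes near 3 counts: 28 higher DEGs had every NTC library, and 20 lower DEGs every sgRNA 2 library, at or under it. The alternatives for the list medians at 0 uM were chosen after seeing the data; over them the median of the mitosis genes ran from -1.84 to -1.46.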
